A study of Mus musculus with 8 samples.

Results

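The genes described here encode the cytosolic translation initiation and elongation factors of the mouse liver. They are the protein-coding genes whose symbols begin with Eif1 to Eif6, Eef1 or Eef2, without the Eif2ak kinases and without genes on the sex chromosomes or pseudogenes, and 60 of the 27453 genes listed in the deposited files met that rule. Of 68 symbols with these beginnings in the files, named by GENCODE M21, 8 were left out: the 4 eIF2 kinases, Eif2s3x, Eif1ax and Eif2s3y of the sex chromosomes, and Eif2c5, which is annotated as a long noncoding RNA. The methyltransferase gene Eef1aknmt carries the symbol Mettl13 in GENCODE M21, so the rule does not take it in. The eIF4G-related Eif4g2 is not among the 68 symbols found, so it could not be analysed here.

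Polyadenylated liver RNA of 8 inbred C57BL/6JN mice was read on nanopore flow cells by direct RNA sequencing, in which each read is 1 native RNA molecule. The 4 O-titled livers carry a recorded age of 12 weeks and the 4 Y-titled livers one of 80 weeks. In both sets replicates 1 and 2 are male and replicates 3 and 4 female. The series contrasts young mice of about 2 months with old mice of about 18 months, and 1 treatment label that speaks of an old group is on all 8 libraries, so which set is the older one cannot be told from the labels, and the sets are called by their titles throughout. No genotype or agent other than the strain is recorded, each library is a different animal, and the tissue is liver with all its cell types, so fewer cells of a type and less RNA per cell cannot be told apart.

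Translation of a messenger RNA starts when eIF4E binds its cap and, with the scaffold eIF4G and the helicase eIF4A, brings in a small ribosomal subunit that carries eIF1, eIF1A, eIF3, eIF5 and the initiator tRNA held by eIF2. eIF2B reloads eIF2 with GTP after each round, and its inhibition by phosphorylated eIF2 is the core of the integrated stress response. The 4E-binding proteins block the contact of eIF4E with eIF4G until the kinase complex mTORC1 phosphorylates them. In elongation eEF1A brings aminoacyl-tRNAs to the ribosome, eEF1B reloads eEF1A with GTP, eEF2 moves the ribosome by a codon, and eIF5A helps at slow peptide bonds. Many messenger RNAs of this machinery begin with a run of pyrimidines, the terminal oligopyrimidine motif, through which mTORC1 controls their own translation.

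Pyrimidine runs near the annotated starts of Eef1a1 and Eif3f, members of different abundance, are shown. The Eif3f run stands at the annotated first base, as in the terminal motif. The Eef1a1 run lies inside the annotated transcript and is not a terminal motif there. They were taken from GENCODE M21 transcripts on mm10 (GRCm38), 5′ to 3′, with the pyrimidine run in capitals. The genes shown were chosen after the values were seen.
Eef1a1, chr9:78481649-78481678, minus strand, bases 47 to 76 of its transcript: ggacgTTCTTTTTCgcaacgggtttgccgt
Eif3f, chr7:108934417-108934446, plus strand, bases 1 to 30 of its transcript: CTCTTTCTCggcaagatggcttctccggcc
A run of at least 8 pyrimidines (C or T, on the transcript strand) lay within the first 100 bases of the most-read transcript in 27 of 49 tested members (55.1%), in 68.3% of 82 tested cytosolic ribosomal protein genes and in 28.8% of 6734 tested genes with a sequence. That window and length were chosen after a stricter measure had been seen: among 59 RefSeq starts of 45 members, 1 (1.69%, Eif3f) began with a C and 4 more pyrimidines, against 2.51% of 32851 starts of all genes. The run starts at base 52 of the annotated Eef1a1 transcript and at base 1 of that of Eif3f. Members with such a run had a median log2 fold of -0.07 between O-titled and Y-titled livers, and those without it -0.12.

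Mapped reads per library ranged from 792004 to 2593200 in the O-titled set and from 545171 to 1722220 in the Y-titled set, which puts the floor of 3 reads between 1.16 and 5.50 counts-per-million (CPM) of mapped reads (counting error only). Hepatocyte markers were high in every library (6 genes with a summed level of 72489 to 96455 CPM of mapped reads in O-titled and 66633 to 110847 in Y-titled livers), and the 4 muscle markers had 0 reads. Levels called CPM with no further word are counts-per-million of the reads of tested genes, scaled between libraries, and sums over several genes are given as CPM of mapped reads. Neither is divided by length, because 1 read is 1 molecule. Means are given ± SD with n = 4 livers per set. Log2 folds are O-titled over Y-titled with sex as a covariate, and a gene was called when edgeR's quasi-likelihood test gave it an adjusted p no higher than 0.05, adjusted over 6759 genes. Enough reads for that test were present for 49 of the 60 members.

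None of the 49 tested members differed between O-titled and Y-titled livers at that threshold, where 4.01% of all genes did (2.09% higher and 1.92% lower). At an unadjusted p under 0.05 there were 5 members, Eef1e1 and Eif2b4 with higher and Eif1a, Eif2b5 and Eif4ebp3 with lower values in O-titled livers, against 16.2% of all genes. DESeq2 called 1 member, Eif4ebp3, and limma voom 0. The median log2 fold of the members was -0.08, beside -0.00 for all genes, and 11 of 49 members had a fold above 0, beside 49.9% of all genes. The 95% interval of the fold lay within 0.5 log2 units of 0 on both sides for 29 members and within 1 unit for 44, so halving or doubling lay outside the interval for those 44. Over the 8 libraries, with both sets and both sexes together, the median coefficient of variation was 14.1% for the members and 22.9% for all tested genes. Counting error is included and weighs more on genes with few reads. The members were not matched to the other genes by level, so these medians do not show that the members are steadier.

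**Figure D1:**
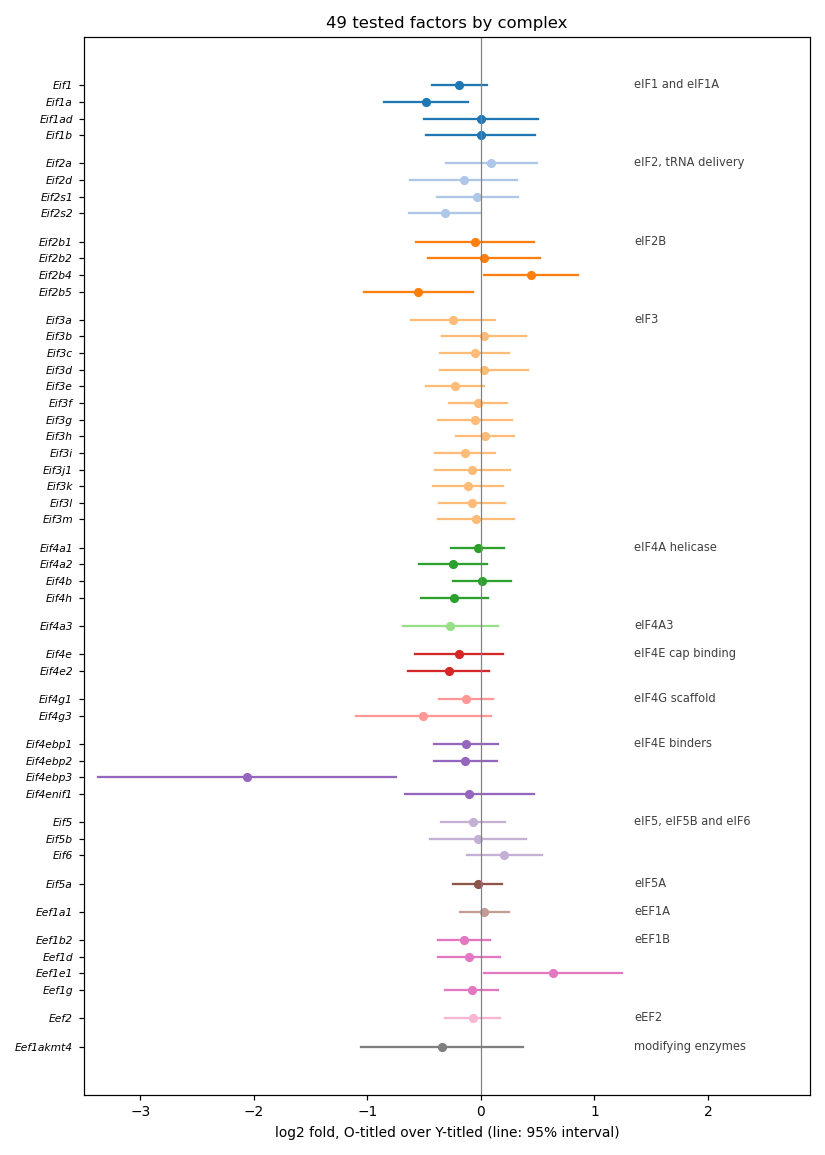
Log2 fold, O-titled over Y-titled livers, of each of the 49 tested factors (points) with its 95% interval (lines), grouped by complex. 44 of the 49 intervals include 0, and Eif4ebp3, at -2.06, lies farthest from it.

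All members together made up 0.810% to 0.918% of mapped reads in O-titled and 0.840% to 0.923% in Y-titled livers. Their summed level was 8881 ± 520.4 CPM of mapped reads in O-titled and 8654 ± 393 in Y-titled livers. Eef1a1 alone supplied 43.3% to 45.8% of the members' reads in O-titled and 41.4% to 43.2% in Y-titled livers, and the sets do not overlap in that share, which was noticed after the values were seen and is not tested. In CPM, the same gene's sets overlap.

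**Figure D2:**
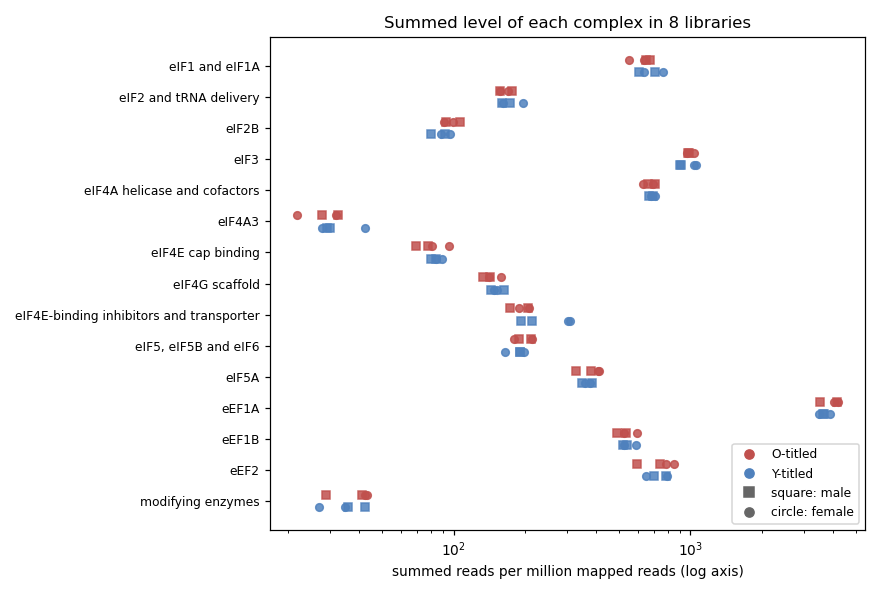
Summed level of each complex in every library, in CPM of mapped reads on a log axis, O-titled in red above Y-titled in blue, males as squares and females as circles. eEF1A lies highest at 3511 to 4198 in O-titled and 3480 to 3862 in Y-titled livers, and in the eIF4E-binding group the Y-titled females lie apart from the other 6 livers.

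Among the factors that scan for the start codon, Eif1, which guards the choice of the start codon, was the most abundant, with 575, 619, 448 and 538 CPM in O-titled replicates 1 to 4, against 677, 582, 671 and 542 CPM in Y-titled replicates 1 to 4. The sets overlap, and the log2 fold was -0.19 (SE 0.115, adjusted p = 0.458). Eif1a (ENSMUSG00000057561, chromosome 18 from 46597701 to 46616456 on mm10) encodes eIF1A, the partner of eIF1 on the small subunit. It had 44.2, 34.9, 45.1 and 34.3 CPM in O-titled livers, against 48.5, 39.6, 66.1 and 70.01 CPM in Y-titled livers. The Y-titled females were highest, while the males of both sets overlap. Its log2 fold was -0.48 (SE 0.174, 95% interval -0.85 to -0.12, adjusted p = 0.146). Eif1b, a close copy of Eif1, had a fold of -0.00. Eif1ad, grouped here by its symbol and not for a role in scanning, had a fold of 0.00.

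The subunits of eIF2 on the autosomes, Eif2s1 (alpha, the subunit that the stress kinases phosphorylate) and Eif2s2 (beta), did not pass the test. Eif2s2 had 78.0, 80.6, 59.0 and 50.4 CPM in O-titled livers, against 75.5, 87.1, 89.1 and 78.1 CPM in Y-titled livers. The O-titled females were the lowest of the 8, and the log2 fold was -0.31 (SE 0.151, adjusted p = 0.317). Eif2s1 averaged 41.2 ± 4.39 CPM in O-titled livers and 43.8 ± 7.74 CPM in Y-titled livers. Eif2a and Eif2d, which deliver tRNA to ribosomes without eIF2, had folds of 0.09 and -0.15.

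Of the 5 subunits of the exchange factor eIF2B, 4 were tested and their folds pointed both ways, between -0.55 and 0.44. Eif2b4, the delta subunit, had 26.5, 33.6, 33.0 and 28.0 CPM in O-titled livers, against 20.1, 17.8, 27.6 and 20.6 CPM in Y-titled livers, a log2 fold of 0.44 (SE 0.197, adjusted p = 0.268). Only Y-titled replicate 3 overlaps the O-titled range. Eif2b5, the catalytic epsilon subunit, had 22.3, 26.9, 17.4 and 13.3 CPM in O-titled livers, against 30.8, 17.8, 29.4 and 30.5 CPM in Y-titled livers, a log2 fold of -0.55 (SE 0.227, adjusted p = 0.219). Here 3 Y-titled livers lay above every O-titled liver, and Y-titled replicate 2, the shallowest library, lay among the O-titled ones. The sum of the 5 subunits was 97.5 ± 6.76 CPM of mapped reads in O-titled and 89.4 ± 6.51 in Y-titled livers.

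The eIF3 complex, the largest initiation factor and the organiser of the small subunit's initiation complex, had no called subunit. Its 14 listed genes summed to 985, 979.8, 1035 and 964 CPM of mapped reads in O-titled livers, against 911, 906, 1051 and 1032 in Y-titled livers. The 13 tested subunits had log2 folds between -0.25 and 0.03, with a median of -0.05. Eif3h, the most abundant subunit, averaged 119.7 ± 12.8 CPM in O-titled livers and 116 ± 8.73 CPM in Y-titled livers. Eif3a, the large scaffold subunit, had the largest fold, with 30.8, 49.7, 43.4 and 36.4 CPM in O-titled livers, against 40.3, 39.6, 53.3 and 49.4 CPM in Y-titled livers (log2 fold -0.25, SE 0.175, adjusted p = 0.544). Eif3e, which docks eIF4G, had 93.8, 88.7, 91.2 and 90.3 CPM in O-titled livers, against 99.4, 113, 115 and 102 CPM in Y-titled livers. Every O-titled liver was below every Y-titled one, at a log2 fold of -0.23 (SE 0.122, adjusted p = 0.390).

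Such separation was about as frequent as among all genes or less: 2 of 49 members, Eif3e and Eif4h, had all O-titled livers below all Y-titled ones, beside 4.62% of tested genes, and 0 had them above, beside 4.1%. Eif4h, a cofactor that stimulates the helicase eIF4A, had 101.5, 82.0, 99.8 and 70.7 CPM in O-titled livers, against 102.0, 103, 103 and 111 CPM in Y-titled livers (log2 fold -0.24, SE 0.140, adjusted p = 0.442). The nearest O-titled and Y-titled livers differ by less than 1 CPM. Eif3e and Eif4h are named here because of this separation, after their values were seen.

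The helicase itself comes from the Eif4a1 and Eif4a2 genes. Eif4a1 had 287, 289, 269 and 270.2 CPM in O-titled livers, against 246, 323, 286 and 288 CPM in Y-titled livers, and its log2 fold was -0.03 (SE 0.111, adjusted p = 0.950). Eif4a2 had 186, 219, 122 and 200.2 CPM in O-titled livers, against 244, 198, 210.4 and 200.2 CPM in Y-titled livers, where O-titled replicate 3 was lowest (log2 fold -0.25, SE 0.143, adjusted p = 0.431). Eif4a3, whose helicase sits in the exon junction complex and not in initiation, averaged 28.3 ± 5.00 CPM in O-titled livers and 34.1 ± 6.30 CPM in Y-titled livers, a log2 fold of -0.27 (SE 0.198, adjusted p = 0.569). The cofactor Eif4b had a fold of 0.01.

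Cap-binding and scaffold genes had lower levels than Eif4a1. Eif4e, the cap-binding protein, averaged 35.3 ± 4.74 CPM in O-titled livers and 41.2 ± 9.40 CPM in Y-titled livers. Eif4e2, a cap-binding relative that represses translation, had 41.1, 39.0, 28.6 and 39.2 CPM in O-titled livers, against 47.8, 45.5, 51.4 and 35.9 CPM in Y-titled livers (log2 fold -0.28, SE 0.170, adjusted p = 0.452). Eif4g1, the main scaffold, had 129.9, 130.3, 128 and 144 CPM in O-titled livers, against 144, 156, 142 and 142 CPM in Y-titled livers (log2 fold -0.13, SE 0.113, adjusted p = 0.645). O-titled replicate 4 alone reaches the Y-titled range. Its rarer relative Eif4g3 had 11.5, 10.7, 6.08 and 7.70 CPM in O-titled livers, against 12.0, 19.8, 12.9 and 10.8 CPM in Y-titled livers (log2 fold -0.51, SE 0.282, adjusted p = 0.409).

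The proteins that hold eIF4E gave the members' largest difference. Eif4ebp3 (ENSMUSG00000090264, chromosome 18 from 36664060 to 36665917 on mm10, plus strand) encodes the third 4E-binding protein, an inhibitor of cap-dependent initiation. It had 14.6, 10.7, 9.55 and 19.6 CPM in O-titled replicates 1 to 4, against 17.6, 23.8, 98.3 and 145 CPM in Y-titled replicates 1 to 4, from 38, 8, 11 and 28 reads in O-titled and 28, 12, 107 and 161 reads in Y-titled livers. Both Y-titled females stood far above the other 6 livers, which lay within 9.55 to 23.8 CPM. The log2 fold with both sexes together was -2.06 (SE 0.538, 95% interval -3.38 to -0.75) and did not pass the test (adjusted p = 0.118). With DESeq2 it did (log2 fold -1.94, adjusted p = 4.30e-04), and so it did with edgeR when O-titled replicate 1 was left out (-2.67, adjusted p = 0.00550).

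**Figure D3:**
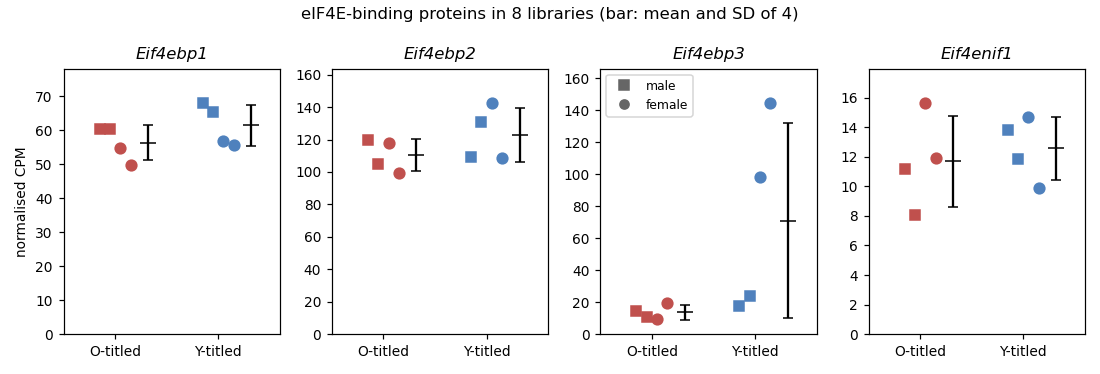
CPM of the 4 genes whose proteins bind eIF4E and keep it from eIF4G or carry it, in each library, males as squares and females as circles, with the mean and SD of the 4 livers beside each set. The Y-titled females, at 98.3 and 145 CPM of Eif4ebp3, lie above the other 6 livers, and the sets overlap for each of the 4 genes.

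In none of the other eIF4E-binding genes did both Y-titled females stand above the rest. Eif4ebp2 had 119.5, 105, 118 and 99.4 CPM in O-titled livers, against 109.5, 131, 142 and 109 CPM in Y-titled livers (log2 fold -0.14, SE 0.133, adjusted p = 0.688). Eif4ebp1, the best studied mTORC1 target of the family, averaged 56.3 ± 5.15 CPM in O-titled livers and 61.5 ± 6.09 CPM in Y-titled livers. Eif4enif1, the carrier of eIF4E into the nucleus, averaged 11.7 ± 3.11 CPM in O-titled livers and 12.6 ± 2.15 CPM in Y-titled livers. In the Y-titled females Eif4ebp3 was thus close to Eif4ebp2 in level, and in the other livers it was nearer to Eif4enif1.

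Within females, Eif4ebp3 had 9.55 and 19.6 CPM in O-titled livers, against 98.3 and 145 CPM in Y-titled livers (log2 fold -3.01, SE 0.286, adjusted p = 2.43e-06). Within males it had 14.6 and 10.7 CPM in O-titled livers, against 17.6 and 23.8 CPM in Y-titled livers (log2 fold -0.51, SE 0.379, adjusted p = 0.742). The difference between these folds, females minus males, was itself called at -2.50 (SE 0.486, adjusted p = 0.0255), the 1 call among 49 members where 0.385% of all genes were called. It missed the threshold when any of O-titled replicates 1 or 3 or Y-titled replicates 1, 2 or 4 was left out (adjusted p from 0.0672 to 0.467), at values of -2.11 to -2.62. The lower level in O-titled than in Y-titled females was called in each alternative run that kept all 4 females, at log2 folds from -3.00 to -3.03. It was also called without any 1 female, at -2.61 to -3.63, but each sex and title group has 2 livers, so leaving out 1 leaves a lone liver that is assumed to vary like the other groups. The same holds for the difference of the folds with 1 liver left out, and for the other folds within a sex.

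Eif4ebp3 reads averaged 675 bases in O-titled and 733 bases in Y-titled livers, beside an annotated transcript of 744 bases. In Y-titled replicate 1 the mean was 780 bases, longer than that transcript. Read length therefore does not show how much of the transcript a read covers. A readthrough gene, AC115631.1, covers the same strand in GENCODE and is not among the features listed in the files, and Ankhd1, the gene upstream, had 16 reads in O-titled and 4 in Y-titled livers. Of 4 neutrophil markers 1, Ly6g, also had most reads in the Y-titled females, with 13, 2, 4 and 47 reads in O-titled livers, against 12, 0, 96 and 68 reads in Y-titled livers. The others did not: S100a8 had 54, 3, 5 and 25 reads in O-titled livers, against 6, 4, 0 and 6 in Y-titled livers, S100a9 was likewise highest in O-titled replicate 1 with 42 reads, and Retnlg had at most 4 reads in a liver. The 4 markers summed to 8.84 to 64.3 CPM of mapped reads in O-titled and 11.0 to 87.2 in Y-titled livers, and their part in the result was not tested.

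Eif1a was the other member called within females. It had 45.1 and 34.3 CPM in O-titled females, against 66.1 and 70.01 CPM in Y-titled females (log2 fold -0.79, SE 0.221, adjusted p = 0.0420), and a log2 fold of -0.15 in males (SE 0.233, adjusted p = 0.903). The difference between the sexes was not called (-0.64, SE 0.321, adjusted p = 0.624). The female call was lost with DESeq2 (adjusted p = 0.371) and without O-titled replicate 4 or Y-titled replicate 1, 3 or 4 (adjusted p from 0.0509 to 0.318). In CPM of mapped reads, Eif1a had 47.5 and 35.8 in O-titled females, against 64.7 and 67.9 in Y-titled females. On that scale its X-linked copy Eif1ax, which is no member, had 59.4 and 43.1 in O-titled females, against 44.0 and 33.1 in Y-titled females. Males went the other way for Eif1ax, with 37.8 and 30.3 in O-titled livers, against 44.1 and 40.4 in Y-titled livers. How reads that match both genes were assigned is not given in the sources used here.

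In all, 2 of 49 members were lower and 0 higher in O-titled than in Y-titled females, beside 5.47% of all genes called (2.74% in each direction). In males 0 members were called with edgeR, beside 1.26%, and 2 had an unadjusted p under 0.05, beside 9.45%. The median member fold was -0.12 in females and -0.07 in males. Besides Eif4ebp3, the difference between the sexes had an unadjusted p under 0.05 for Eif2s2, Eif3d, Eif3m and Eef1akmt4, against 8.46% of all genes, and their adjusted p values lay between 0.554 and 0.583.

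**Figure D4:**
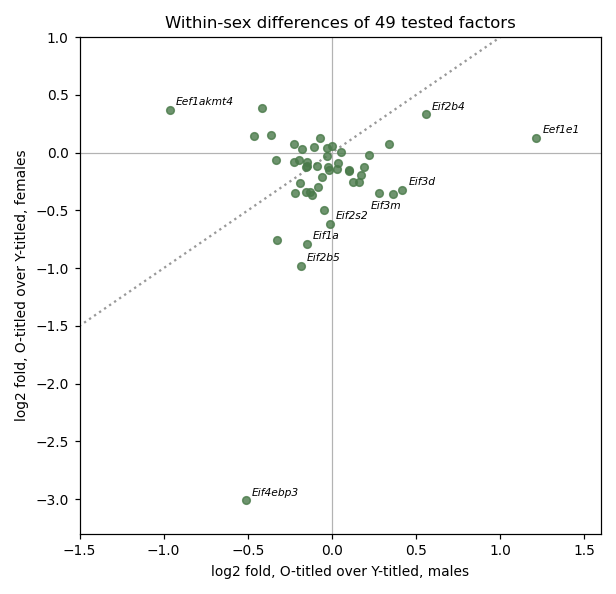
Log2 fold, O-titled over Y-titled, in females (vertical) against males (horizontal) for the 49 tested factors, with a dotted line where both are equal. Most points lie within 0.5 of 0 on both axes, and Eif4ebp3 stands apart at -3.01 in females and -0.51 in males.

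Between females and males, with the title as a covariate, 0 of 49 members were called, beside 2.96% of all genes. The 1 member at an unadjusted p under 0.05, where 12.3% of all genes were, was Eif4ebp3, with 68.0 ± 64.6 CPM in females and 16.7 ± 5.49 CPM in males (log2 fold 1.66, adjusted p = 0.276), and its high female values are those of the Y-titled animals. DESeq2 called it (log2 fold 1.45), as did edgeR without O-titled replicate 1 (2.29), and limma voom called 0 members. The median member fold between the sexes was -0.01, and 23 of 49 folds were above 0, beside 49.7% of all genes.

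None of the factors that act at subunit joining was called. Eif5, which triggers GTP hydrolysis on eIF2, had 112, 124, 96.4 and 127 CPM in O-titled livers, against 128, 139, 124 and 96.0 CPM in Y-titled livers (log2 fold -0.07, SE 0.135, adjusted p = 0.867). Eif6, which keeps free large subunits from joining, had 73.0, 51.1, 57.3 and 53.9 CPM in O-titled livers, against 55.4, 43.6, 51.4 and 53.9 CPM in Y-titled livers. Its sets overlap, at a log2 fold of 0.21 (SE 0.157, adjusted p = 0.586). Eif5b, the GTPase that joins the subunits, had a fold of -0.02. Eif5a, the carrier of the hypusine residue, had 381, 349, 386 and 395 CPM in O-titled livers, against 376, 414, 366 and 388 CPM in Y-titled livers, and was among the least variable members (log2 fold -0.03, SE 0.103, adjusted p = 0.950).

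The elongation factor genes Eef1a1 and Eef2 were the most abundant members, and neither was called. Eef1a1 (ENSMUSG00000037742, chromosome 9 from 78478449 to 78489151 on mm10) had 4158, 3736, 3988 and 3857 CPM in O-titled livers, against 3945, 3955, 3948 and 3586 CPM in Y-titled livers, the 41st highest mean of all tested genes. Its log2 fold was 0.03 with a 95% interval of -0.19 to 0.24 (SE 0.103, adjusted p = 0.948). Eef1a2, the eEF1A of muscle and neurons, had 0 reads in all 8 livers. Eef2 had 739.6, 635, 751 and 814 CPM in O-titled livers, against 762, 847, 817 and 669 CPM in Y-titled livers (log2 fold -0.07, SE 0.115, adjusted p = 0.828).

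In the exchange complex eEF1B, Eef1b2 supplies the catalytic subunit. It had 254, 254, 295 and 246 CPM in O-titled livers, against 303, 289, 300.4 and 270.2 CPM in Y-titled livers (log2 fold -0.15, SE 0.108, adjusted p = 0.557), with O-titled replicate 3 inside the Y-titled range. Eef1g, the structural subunit, had 159.9, 163, 159.7 and 147 CPM in O-titled livers, against 159, 168, 175 and 164 CPM in Y-titled livers (log2 fold -0.08, SE 0.110, adjusted p = 0.789). Eef1e1, which encodes a scaffold protein of the aminoacyl-tRNA synthetase complex, had 15.4, 16.1, 13.9 and 11.2 CPM in O-titled livers, against 6.92, 5.94, 11.0 and 11.7 CPM in Y-titled livers. Y-titled males were lowest, and the log2 fold was 0.63 (SE 0.290, adjusted p = 0.282). Eef1e1 was grouped with the eEF1B genes here, although its protein belongs to the synthetase complex. Eef1b2, Eef1g, Eef1d and Eef1e1 together summed to 536 ± 42.8 CPM of mapped reads in O-titled and 543 ± 31.3 in Y-titled livers.

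Enzymes that modify elongation factors were few in reads. Eef1akmt4, a lysine methyltransferase gene, was the 1 of 6 with enough reads for the test, with 8.84, 5.37, 7.81 and 14.0 CPM in O-titled livers, against 13.8, 19.8, 7.35 and 9.87 CPM in Y-titled livers (log2 fold -0.34, SE 0.339, adjusted p = 0.703). Among the 11 members under the filter, Eef2k, the kinase that inactivates eEF2, had 17, 4, 6 and 11 reads in O-titled livers, against 9, 0, 4 and 1 in Y-titled livers. Its exact permutation p was 0.0571 on log2(CPM + 0.5), two-sided, where 4 against 4 livers cannot give less than 0.0286. Eef2kmt, the methyltransferase of eEF2, had 18, 6, 7 and 9 reads in O-titled livers, against 7, 3, 6 and 7 in Y-titled livers, and reached that smallest exact p of 0.0286 (adjusted p = 0.533 over 5054 genes under the filter, of which 0, or 0%, were called). The eIF2B subunit gene Eif2b3 had 45 and 28 reads in O-titled and Y-titled livers, not scaled for depth, at an exact permutation p of 0.0857. Eif4e3, a cap-binding relative, had 5, 3, 13 and 17 reads in O-titled livers, against 0, 1, 6 and 5 in Y-titled livers. In both sets the females had more reads of it than the males. Its exact permutation p, from a test that does not take sex into account, was 0.229. Eef1akmt1, Eef1akmt2 and Eif3j2 had exact p values from 0.429 to 0.686. Eif4e1b, Eif5a2 and Eef1akmt3 had 3, 1 and 4 reads in O-titled livers, against 0, 1 and 5 in Y-titled livers, too few for a test.

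Long reads also count the transcripts of a gene apart. Of 10 members with at least 2 well-read transcripts, 0 were called for a change of transcript usage between O-titled and Y-titled livers, and 0 had an unadjusted gene p under 0.05, beside 0 of 1236 genes (0%) called by edgeR's splicing test. The lowest gene p was that of Eif5 (0.136 unadjusted, adjusted p = 1.00). Its transcript Eif5-212 took 28.8%, 26.1%, 26.1% and 24.2% of the gene's reads in O-titled livers, against 19.2%, 18.6%, 19.3% and 18.7% in Y-titled livers, at an unadjusted transcript p of 0.0454 with edgeR. Those shares do not overlap, and the transcript is named after its values were seen, as the one with the lowest transcript p among the members. How often other tested transcripts have shares that do not overlap, or such a p, was not counted. The separation is therefore not read as a change of usage. Eif4a2 gave 61.2% ± 4.26 of its reads to its main transcript in O-titled and 63.6% ± 4.08 in Y-titled livers. Eif4h gave 66.0% ± 2.87 to its longer transcript in O-titled and 64.7% ± 2.60 in Y-titled livers. Eif5a spread its reads over 8 tested transcripts, of which the main one took 34.7% ± 1.09 in O-titled and 38.9% ± 3.08 in Y-titled livers. Mean read length was 63.6% of the main transcript at the members' median and 58.7% at that of all genes, and reads were shorter in O-titled livers by a median of 36.8 bases for members and 36.5 bases for all genes.

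Genes that work beside these factors were read from lists chosen with earlier results known. The counts below stand beside 4.01% of all tested genes called between the sets (2.09% higher and 1.92% lower). Of 82 tested cytosolic ribosomal protein genes 0 were called between O-titled and Y-titled livers, with a median log2 fold of -0.05, and likewise 0 of 22 tRNA synthetase genes (median -0.06), 0 of 18 mTORC1 pathway genes (0.02), 0 of 5 poly(A)-binding genes (-0.18), 0 of 5 termination and recycling genes (0.03), 0 of 4 selenocysteine genes (0.13) and 0 of 1 hypusine gene. Of the eIF2 kinases 1 of 4 had enough reads, Eif2ak1, the heme-regulated one, and it was not called (log2 fold -0.50, SE 0.234, adjusted p = 0.297). Of 20 listed integrated stress response genes only 6 had enough reads for the test, and 2 of these 6 were called lower in O-titled livers. Atf5, a transcription factor whose translation rises when eIF2 is phosphorylated, had 228 ± 58.2 CPM in O-titled livers, against 412 ± 73.4 CPM in Y-titled livers (log2 fold -0.88, SE 0.182, adjusted p = 0.0204). Gdf15, a secreted stress hormone, had 3.66 ± 2.23 CPM in O-titled livers, against 15.0 ± 7.64 CPM in Y-titled livers (log2 fold -1.88, SE 0.411, adjusted p = 0.0127). These levels rest on 9, 3, 1 and 9 reads in O-titled livers, against 24, 13, 10 and 11 in Y-titled livers. Gdf15 passed the read filter only through the Y-titled livers, where it was high, so its call is not independent of that filter. Atf4, the main effector, had 53.1 CPM in O-titled livers, against 54.9 CPM in Y-titled livers. Of 7 mitochondrial translation factor genes 1 was called lower in O-titled livers, Mrrf, the ribosome recycling factor. It had 17.2 ± 4.43 CPM in O-titled livers, against 32.8 ± 5.21 CPM in Y-titled livers (log2 fold -0.95, SE 0.219, adjusted p = 0.0181).

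Other liver cell types differed between the libraries. Summed Kupffer cell and macrophage markers stood at 1657, 571, 1802 and 1380.5 CPM of mapped reads in O-titled livers, against 732, 675, 866 and 879 in Y-titled livers, so that 3 of 4 O-titled livers lay above all Y-titled ones and O-titled replicate 2 below them. All 11 tested markers had a log2 fold above 0 (median 0.49), beside 49.9% of all genes. Of these 11, 5 had an unadjusted p under 0.05 with edgeR, beside 16.2%, and 0 were called, beside 4.01%. Stellate and fibroblast markers ranged from 306 to 421 in O-titled and from 231 to 345 in Y-titled livers. Of 7 tested, 5 had a log2 fold above 0 and 1, Dcn, was called higher, beside 2.09% of all genes. Col3a1 and Rgs5 went the other way, with log2 folds of -0.66 and -0.07, and neither was called. Sinusoidal endothelial markers summed to between 182 and 259 in O-titled and between 158 and 242 in Y-titled livers, and cholangiocyte markers to between 22.7 and 44.8 in O-titled and 16.5 and 43.1 in Y-titled livers. Lymphocyte markers stayed at or below 18.3 CPM of mapped reads and neuronal ones at or below 11.0, and the summed red cell markers ranged from 2018 to 2894 in O-titled and from 1664 to 4299 in Y-titled livers. Their part in the members' values was not tested.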

How the data were processed

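Per the file headers, each deposited table gives whole-number counts of reads per transcript for 1 liver, with no normalization, and read lengths in bases. The submitters' processing notes name minimap2 2.24, mm10 and DESeq2. The counting tool, annotation, use of strand and handling of multi-mapped reads are not given in the sources used here. Members with close copies (Eif1 and Eif1b, Eif1a and Eif1ax, Eif3j1 and Eif3j2) are therefore uncertain. So are members with overlapping neighbours, among them Eef1d with Naprt, Eef1akmt2 with Fgfr2, Eef1akmt4 with Gm49333 and Eif4e3 with Gm20696. Deposited columns of total and mapped reads, also counts, gave the depth: 545171 to 2593200 mapped reads.

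Counts of 53983 transcripts were summed to genes and named from GENCODE M21. edgeR 4.0.16 in R 4.3.3 was fitted on all genes (filterByExpr minimum count 10 by group, TMM scaling, robust quasi-likelihood, sex as covariate, Benjamini-Hochberg over 6759 genes). A fit of 4 sex and title groups gave differences within and between the sexes. Transcript usage was tested with diffSpliceDGE and Simes p values, and genes under the filter with an exact permutation test over 70 assignments. DESeq2 1.42.0 and limma 3.58.1 voom were alternatives. The O-titled over Y-titled comparison with sex as covariate and the transcript usage test were tried on simulated data. The fit of 4 groups, which gave the calls within females and for the difference between the sexes, was not, and neither was the permutation test. SEs were derived from the fold and F.

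Replicate numbers recur in both sets. Deviations of same-numbered livers correlated at 0.22 to 0.41, those of the same sex with other numbers at 0.23 to 0.46, and those of the other sex at -0.44 to -0.12. Once the mean of each sex was removed, same-numbered livers correlated at -0.06 in males and -0.03 in females.

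Members and lists were chosen with earlier results of these data known. Members named are those called in any test, those at an unadjusted p under 0.05 between the sets, the 8 most abundant, and the most changed and most abundant of each complex; a few others are named by role or, where stated, after their values were seen.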

Additional observations from a re-analysis of the deposited data

Results flagged for a closer look

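Eif4ebp3 is listed because its difference between O-titled and Y-titled livers itself differed between the sexes, by -2.50 log2 units (females minus males, adjusted p = 0.0255 with edgeR). The other results listed here have 1 liver far from the other 3 of its set. Chance alone marks about 1 in 20 groups, and 78 groups were examined.

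In Y-titled replicate 4, a female, Eef1a1 was at 3586 CPM, below the other Y-titled livers at 3945 to 3955 CPM. Y-titled replicate 2, a male and the shallowest library, had 17.8 CPM of Eif2b5, where the others had 29.4 to 30.8 CPM, and 156 CPM of Eif4g1, where the others had 142 to 144 CPM. O-titled replicate 4, a female, had 144 CPM of Eif4g1, where the other O-titled livers had 128 to 130.3 CPM. In O-titled replicate 2, a male and the shallowest of its set, the members summed to 8103 CPM of mapped reads, where the others had 9081 to 9179, and the modifying enzymes to 29.0, where the others had 41.3 to 43.0.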

How the results depend on the processing

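DESeq2 called 1 member between O-titled and Y-titled livers and 1 between females and males, Eif4ebp3 both times, and without the filter 1 was called between the sexes, Eif4e3. Leaving out each liver in turn gave 0 to 1 members called between the sets, 0 to 1 between females and males and 0 to 1 for the difference between the sexes, and 0 for transcript usage. Other normalizations, voom, no sex covariate and thinning to 545171 reads called 0 between the sets. With the replicate block 0 were called and Eif4ebp3 was at -2.07 (adjusted p = 0.237), so the block changed no call. Of 357 folds of named members under alternatives, 8 changed sign, none of them called: with thinning Eif3h (-0.12), Eif4a1 (0.019) and Eif6 (-0.018), and with 1 liver left out Eef2 (-0.15 to 0.0098), Eif3h (-0.0087 to 0.088), Eif5a (-0.062 to 0.023) and Eif4a1 (-0.11 to 0.045). In males Eif1a ranged from -0.38 to 0.060. The causes were not tested. Depth limits members under 10 CPM and the 11 under the filter.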
